A study of Mus musculus with 62 samples.

Results

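The neuromuscular junction is the synapse where a motor axon releases acetylcholine onto a muscle fibre, and 10 genes of this synapse and of the response of muscle to loss of its nerve were described in mouse soleus. They were Musk, Chrna1, Chrnb1, Chrnd, Chrne, Chrng, Chrna2, Runx1, Ncam1 and Hdac4, taken by their symbols from the 47643 genes of the deposited expression table. The soleus is a calf muscle made largely of slow fibres. It came from female mice of 2 months injected with cachectic melanoma cells, a group called CAC, with non-cachectic melanoma cells (NCAC), or with no tumour cells in a mock injection (Con). Cachexia is a loss of muscle and fat that some tumours bring about. Muscle was taken at 2, 4, 6 and 8 weeks after the injection, with 5 libraries in each of the 12 groups except CAC at 8 weeks, which had 7, so that 62 libraries were compared. The sample labels give the strain as C57BL6/J, the description of the design gives NCI Ath/nude, and LLC cells appear in the extraction protocol, so strain and tumour line could not be settled. The labels name no genetic change in any group, and the replicates of each group are called biological.

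At the junction, agrin from the nerve binds Lrp4 on the fibre, and Lrp4 activates the kinase MuSK, the product of Musk, which gathers acetylcholine receptors under the nerve ending. The adult receptor of the fibre is built from the subunits encoded by Chrna1, Chrnb1, Chrnd and Chrne. In the receptor of embryonic muscle, and of muscle that has lost its nerve, the subunit encoded by Chrng stands in place of that of Chrne. Runx1, a transcription factor, Ncam1, an adhesion molecule, and Hdac4, a histone deacetylase, are known to be raised or to act in denervated fibres. Chrna2 encodes a receptor subunit best known from neurons.

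The upstream sequences of the receptor genes and of Musk are where myogenic factors and nerve-dependent signals are known to act, so 4 of them are shown here before the expression values. Each line holds the 250 bases before the RefSeq start in GRCm38.p6, 5′ to 3′ on the strand of the gene, with capitals for the E-box CANNTG, the letters bound by MyoD and myogenin, and for the N-box, known from junctional genes and written CCGGAA. Both were searched on both strands. The stretches are chr4:58285712-58285961 on the plus strand for Musk, chr2:73580339-73580588 on the minus strand for Chrna1, chr11:69795938-69796187 on the minus strand for Chrnb1 and chr11:70619195-70619444 on the minus strand for Chrne.
Musk: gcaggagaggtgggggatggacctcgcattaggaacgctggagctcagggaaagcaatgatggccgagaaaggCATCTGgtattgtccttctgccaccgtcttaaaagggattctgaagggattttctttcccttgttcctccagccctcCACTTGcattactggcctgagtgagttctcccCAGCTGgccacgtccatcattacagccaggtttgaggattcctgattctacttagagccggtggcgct
Chrna1: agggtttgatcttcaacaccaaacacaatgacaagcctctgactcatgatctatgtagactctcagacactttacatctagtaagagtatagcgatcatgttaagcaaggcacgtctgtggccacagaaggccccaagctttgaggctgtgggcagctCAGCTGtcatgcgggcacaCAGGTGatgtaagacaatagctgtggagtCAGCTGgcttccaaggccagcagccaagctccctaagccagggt
Chrnb1: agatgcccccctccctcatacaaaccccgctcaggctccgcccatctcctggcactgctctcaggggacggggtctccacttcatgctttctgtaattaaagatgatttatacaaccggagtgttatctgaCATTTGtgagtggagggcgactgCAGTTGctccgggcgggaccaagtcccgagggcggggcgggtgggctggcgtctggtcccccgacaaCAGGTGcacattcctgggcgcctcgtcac
Chrne: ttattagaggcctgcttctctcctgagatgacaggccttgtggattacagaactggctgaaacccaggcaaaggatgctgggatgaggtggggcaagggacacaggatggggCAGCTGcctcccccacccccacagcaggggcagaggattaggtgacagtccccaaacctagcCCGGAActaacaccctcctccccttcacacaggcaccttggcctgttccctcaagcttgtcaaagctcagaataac
Musk, Chrna1 and Chrnb1 held 3 E-boxes each, and Chrne held 1, beginning at -138, together with the N-box beginning at -76 from the start. Of 32817 promoter windows of this length, 66.2% held an E-box, 13.01% held an E-box with GC in its middle, which is a form of the first, and 12.02% held an N-box. The form with GC in its middle stood in the windows of Musk, Chrna1 and Chrne, and in Chrnb1 no E-box had it. RefSeq windows were matched for 7 of the 10 genes, and a match of letters describes the sequence and not the binding of a factor. Among those not shown, the Chrng window held 3 E-boxes, 2 of them with GC in the middle, and the Hdac4 window held 0. The Runx1 window from chr16:92826075 held 3 E-boxes, and that from chr16:92697330 held 0 and an N-box.

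Abundance was given as TPM, a length-corrected share of all transcripts in a library, so levels can be compared between genes but the read depth behind a value is unknown. All 10 genes passed the filter for testing, at least 1 TPM in at least 5 of the 62 libraries, Chrng with no library to spare. Fold changes below are differences of log2(TPM + 1), each with its standard error and with an adjusted p from limma over 13529 tested genes, and a gene was called at an adjusted p under 0.05. The added 1 understates the changes of low genes, above all Chrng and Runx1. Libraries of week 8 differed from all others whatever the treatment: 16 of 17 lay beyond every earlier library on a first principal component holding 56.9% of the variance, NCAC replicate 2 being the exception. Their summed TPM of 13 muscle fibre markers, led by Acta1, ranged from 42071 to 84611 in CAC, from 38511 to 78742 in NCAC and from 57220 to 80700 in Con. Across all groups of 2 to 6 weeks that sum lay between 79661 and 114135 TPM. The summed macrophage, mast cell and fibro-adipogenic progenitor markers of every 8-week library lay above those of every earlier library, so each value of week 8 stands beside a different mixture of transcripts. Myh4, a myosin of fast fibres, reached 1013 TPM in CAC replicate 4 at 2 weeks, 687 TPM in NCAC replicate 3 at 6 weeks and 2039.9 TPM in CAC replicate 6 at 8 weeks, and was at most 159 TPM elsewhere. That 8-week library also stood low in the slow myosin Myh7, at 453 TPM, while the rest of its group held 1299 to 4671 TPM. In whole muscle, fewer cells of a type and less RNA per cell cannot be told apart.

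By level, the receptor subunits Chrna1 and Chrnb1 and the deacetylase Hdac4 led the group. Group means ran from 15.1 to 44.2 TPM for Chrna1, from 15.6 to 38.9 TPM for Chrnb1 and from 11.0 to 17.8 TPM for Hdac4. Musk, Ncam1, Chrnd and Chrne had group means between 2.77 and 18.2 TPM, Chrna2 between 1.41 and 6.36 TPM, and Runx1 between 0.602 and 3.37 TPM. Chrng was the lowest, with group means between 0.245 and 0.764 TPM. When the 12 groups were put in order of their mean, neighbouring groups overlapped in all 11 steps for each of the 10 genes.

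**Figure D1:**
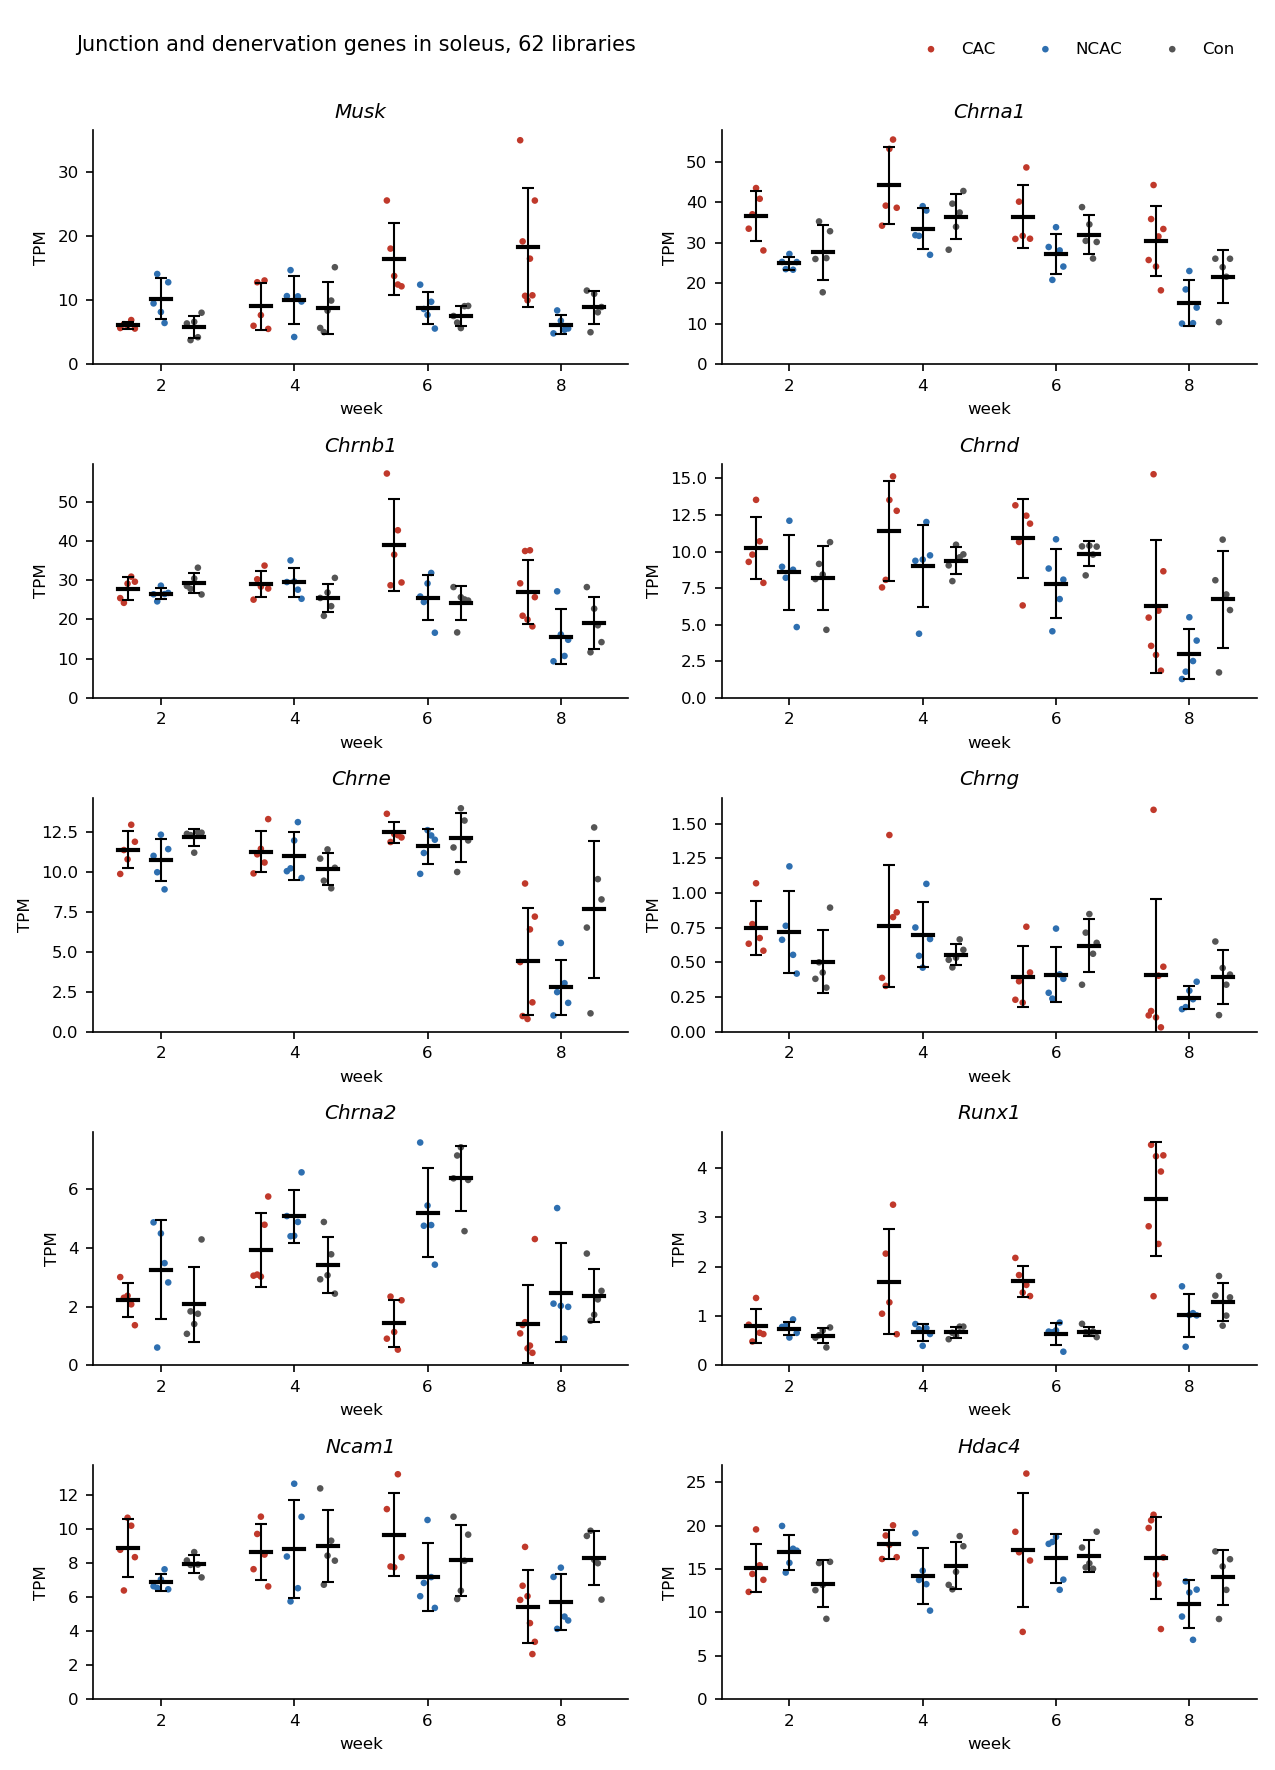
Abundance of the 10 genes in every library (points, TPM) at 2, 4, 6 and 8 weeks, with CAC, NCAC and Con side by side within each week and the group mean and SD as black bars (n = 5, and 7 for CAC at 8 weeks). Musk and Runx1 stand highest in CAC at 8 weeks, with means of 18.2 and 3.37 TPM, Chrna2 is low in CAC at 6 weeks with a mean of 1.43 TPM, and Chrne spreads from 0.79 to 12.8 TPM at 8 weeks.

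The first question was whether junction and denervation genes differ in muscle of animals with the cachectic tumour. At 2 and 4 weeks limma called none of the 10 in CAC against Con, where 0% of all tested genes at 2 weeks and 1.03% at 4 weeks were called, with 1 of the 10 at an unadjusted p under 0.05 in each week. Against NCAC it also called none, with 3 of the 10 at an unadjusted p under 0.05 in each week and 0.503% and 5.84% of all tested genes called at 2 and 4 weeks (5.11% higher in CAC at 4 weeks). At 6 weeks Musk, Chrnb1 and Runx1 were higher and Chrna2 was lower in CAC than in Con, 4 of 10 beside 27.4% of all tested genes (23.5% higher and 3.87% lower). Against NCAC at 6 weeks the same 4 and Chrna1 were called, 5 of 10 beside 32.6% (27.8% higher and 4.86% lower). At 8 weeks Runx1 alone was called against Con, 1 of 10 beside 10.6%, and Musk, Chrna1, Chrnb1 and Runx1, all higher, against NCAC, 4 of 10 beside 21.9% (19.3% higher). The counts are of 10 genes, so none of these shares sets the group apart from its background. The comparisons with Con and with NCAC share the CAC libraries.

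Musk (chromosome 4, 58285960 to 58374303, GRCm38) encodes the kinase that gathers receptors at the synapse. At 6 weeks it had 25.6, 18.1, 13.8, 12.4 and 12.2 TPM in CAC, against 12.4, 8.61, 7.70, 9.75 and 5.56 TPM in NCAC and 7.52, 6.49, 5.64, 9.07 and 9.11 TPM in Con. All 5 CAC libraries lay above all Con libraries, and they met the NCAC range only at its highest library. Musk was higher in CAC by 0.99 ± 0.21 on the log2 scale against Con (adjusted p = 0.00334) and by 0.81 ± 0.21 against NCAC (adjusted p = 0.00814). At 8 weeks the lowest, median and highest CAC libraries had 9.98, 16.5 and 35.0 TPM, against 4.80, 8.39, 6.78, 5.37 and 5.58 TPM in NCAC and 11.5, 4.98, 11.0, 8.10 and 8.93 TPM in Con. CAC lay wholly above NCAC and overlapped Con. The difference from NCAC was 1.31 ± 0.28 (adjusted p = 0.0047), and that from Con was 0.87 ± 0.28 with an adjusted p of 0.0526, just short of the threshold. The adjusted p against Con was 0.0292, 0.0389 and 0.0353 without CAC replicate 3, 4 or 6 in turn, the last being the library high in Myh4. Those replicates held the lowest CAC values, at 10.7, 9.98 and 10.8 TPM, so leaving each out raises the CAC mean. At 2 weeks Musk averaged 6.08 ± 0.54 TPM in CAC, 10.2 ± 3.2 TPM in NCAC and 5.79 ± 1.78 TPM in Con (SD, n = 5 each), so that NCAC was the group that stood high. None of the differences of that week passed: CAC differed by -0.62 ± 0.20 from NCAC (adjusted p = 0.107) and by 0.10 ± 0.20 from Con (adjusted p = 0.877), and NCAC by 0.71 ± 0.20 from Con (adjusted p = 0.221).

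The fibre receptor subunits Chrna1 and Chrnb1 were higher in CAC than in NCAC at 6 and 8 weeks, and Chrnb1 was also higher than in Con at 6 weeks. Chrna1 (chromosome 2, 73563215 to 73580338), the acetylcholine-binding subunit, had 31.0, 40.2, 31.7, 48.6 and 31.0 TPM in CAC at 6 weeks, against 29.0, 20.8, 33.9, 28.1 and 24.1 TPM in NCAC and 38.8, 30.5, 34.6, 26.1 and 30.2 TPM in Con. The 3 groups overlapped, with CAC replicate 4 the highest. The difference of 0.41 ± 0.15 from NCAC passed narrowly (adjusted p = 0.0428), and that of 0.17 ± 0.15 from Con did not pass (adjusted p = 0.383). That call was lost when any one of CAC replicates 2 and 4, NCAC replicates 1, 2, 4 and 5 or Con replicates 2, 3 and 5 was left out, with adjusted p from 0.0511 to 0.122. At 8 weeks Chrna1 averaged 30.5 ± 8.6 TPM in CAC (SD, n = 7), 15.1 ± 5.6 TPM in NCAC and 21.6 ± 6.5 TPM in Con (SD, n = 5 each). CAC was higher than NCAC by 0.99 ± 0.26 (adjusted p = 0.0131), and the difference of 0.49 ± 0.26 from Con did not pass (adjusted p = 0.228). At 2 weeks, where Musk was lower in mean in CAC than in NCAC, Chrna1 lay the other way: the CAC libraries ranged from 28.1 to 43.6 TPM and the NCAC libraries from 23.3 to 27.2 TPM without overlap, at an adjusted p of 0.0872.

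Chrnb1 (chromosome 11, 69784036 to 69795943), the beta subunit of the fibre receptor, had 57.1, 28.7, 36.5, 42.7 and 29.4 TPM in CAC at 6 weeks, against 25.8, 24.4, 29.1, 31.8 and 16.6 TPM in NCAC and 28.2, 16.7, 25.6, 25.1 and 24.8 TPM in Con. CAC lay above Con without overlap, by a narrow margin, and overlapped NCAC. It was higher by 0.64 ± 0.19 against Con (adjusted p = 0.0245) and by 0.57 ± 0.19 against NCAC (adjusted p = 0.0345). Without CAC replicate 1, which held the highest value, the adjusted p was 0.0748 against Con and 0.104 against NCAC. The call against Con was also lost without CAC replicate 4 or Con replicate 2 (adjusted p = 0.0621 and 0.0694), and that against NCAC without CAC replicate 4 or NCAC replicate 1, 2 or 5 (adjusted p from 0.0546 to 0.0951). At 8 weeks Chrnb1 averaged 27.0 ± 8.1 TPM in CAC (SD, n = 7), 15.6 ± 7.0 TPM in NCAC and 19.0 ± 6.7 TPM in Con (SD, n = 5 each). The difference from NCAC was 0.79 ± 0.26 (adjusted p = 0.0384), and it did not pass without any one of CAC replicates 1, 3, 5 and 7 or NCAC replicates 1, 3, 4 and 5 (adjusted p from 0.0534 to 0.102). The median log2 fold change of all tested genes was 0.16 in each of the CAC comparisons of week 6 and in CAC against NCAC at 8 weeks. After median-of-ratios rescaling, which removes that shift, Chrnb1 differed at 6 weeks by 0.46 against Con and 0.38 against NCAC, Chrna1 by 0.22 against NCAC, and at 8 weeks against NCAC they differed by 0.59 and 0.78, all 5 short of the threshold (adjusted p from 0.0616 to 0.268).

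**Figure D2:**
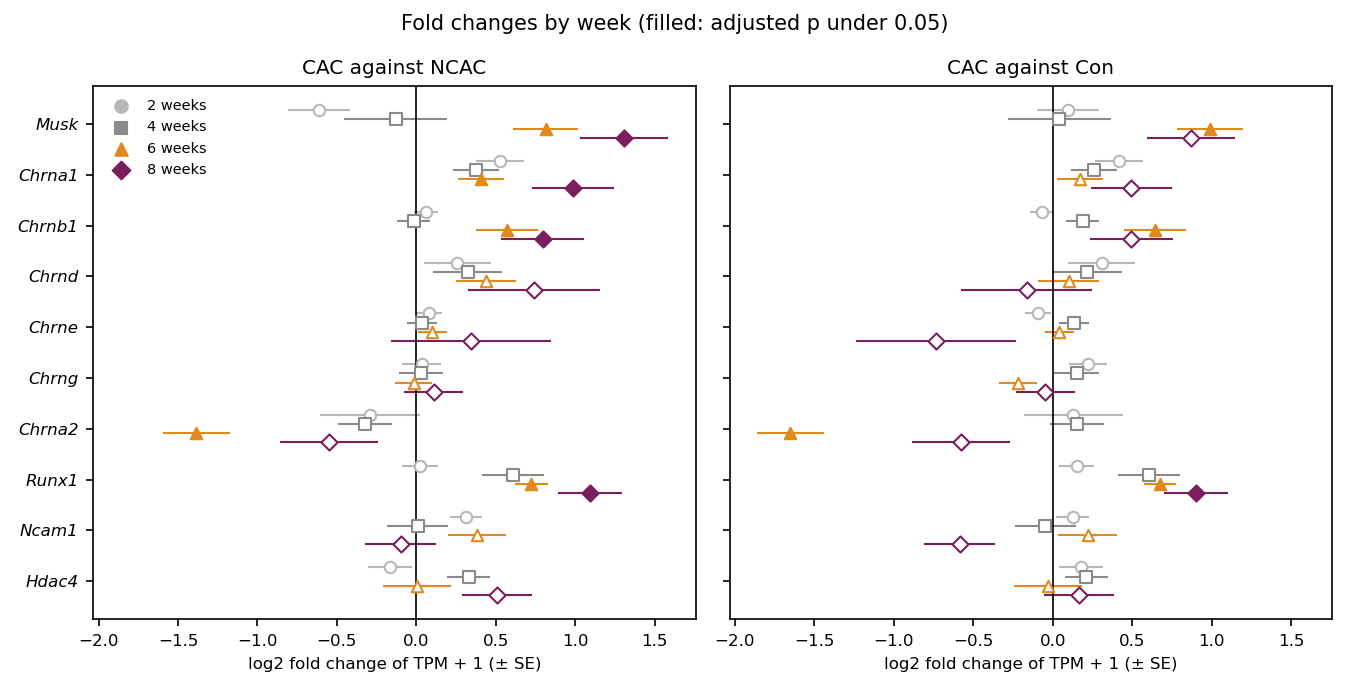
Log2 fold change of TPM + 1 with its standard error for each gene at 2, 4, 6 and 8 weeks, CAC against NCAC on the left and CAC against Con on the right, with filled symbols for adjusted p under 0.05. Musk, Chrnb1 and Runx1 lie right of zero at 6 and 8 weeks, and Chrna2 lies furthest left at 6 weeks, at -1.38 against NCAC and -1.65 against Con.

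The delta and epsilon subunits did not pass in any treatment comparison. Chrnd (chromosome 1, 87190607 to 87200070) averaged 10.9 ± 2.7 TPM in CAC, 7.81 ± 2.35 TPM in NCAC and 9.85 ± 0.86 TPM in Con at 6 weeks (SD, n = 5 each), and its difference of 0.44 ± 0.19 from NCAC had an adjusted p of 0.0826. It was called without CAC replicate 3 (adjusted p = 0.012) or without NCAC replicate 3, a library high in Myh4 (adjusted p = 0.0327). At 8 weeks it averaged 6.25 ± 4.57 TPM in CAC (SD, n = 7), 3.00 ± 1.72 TPM in NCAC and 6.73 ± 3.32 TPM in Con (SD, n = 5 each).

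Chrne (chromosome 11, 70614883 to 70619216), whose product marks the adult receptor, was even up to week 6 and uneven at week 8. Every library of 2 to 6 weeks held between 8.91 and 14.0 TPM, in all treatments. At 8 weeks the CAC libraries held 4.36, 0.974, 9.28, 0.790, 6.40, 1.83 and 7.20 TPM, the NCAC libraries 1.01, 2.47, 5.55, 3.03 and 1.80 TPM, and the Con libraries 6.52, 1.14, 12.8, 9.55 and 8.28 TPM. Low values near 1 TPM appeared in each treatment, and the groups overlapped. In CAC, all libraries of 8 weeks lay below all of 6 weeks, at 4.41 ± 3.34 TPM (SD, n = 7) against 12.5 ± 0.7 TPM (SD, n = 5), and Chrne fell by 1.60 in log2 units (adjusted p = 0.00339, SE 0.42). In Con, 7.66 ± 4.30 TPM at 8 weeks stood against 12.1 ± 1.5 TPM at 6 weeks (SD, n = 5 each), a difference of -0.83 ± 0.45 with an adjusted p of 0.129. The difference between these changes was -0.78 ± 0.61 and did not pass (adjusted p = 0.586). NCAC also stood lower at 8 weeks without overlap, at 2.77 ± 1.73 TPM against 11.6 ± 1.1 TPM at 6 weeks (SD, n = 5 each). That change in NCAC was not tested. Summed muscle fibre markers were also lower in the same weeks: the libraries with about 1 TPM of Chrne had sums between 38511 and 57853 TPM. Chrne was also low at higher sums, with 1.80 TPM in NCAC replicate 5 at a sum of 60982 TPM and 2.47 TPM in NCAC replicate 2 at 76833 TPM, the library that lay within the earlier weeks on the first component. The part of the change of mixture in the Chrne values was not tested.

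**Figure D3:**
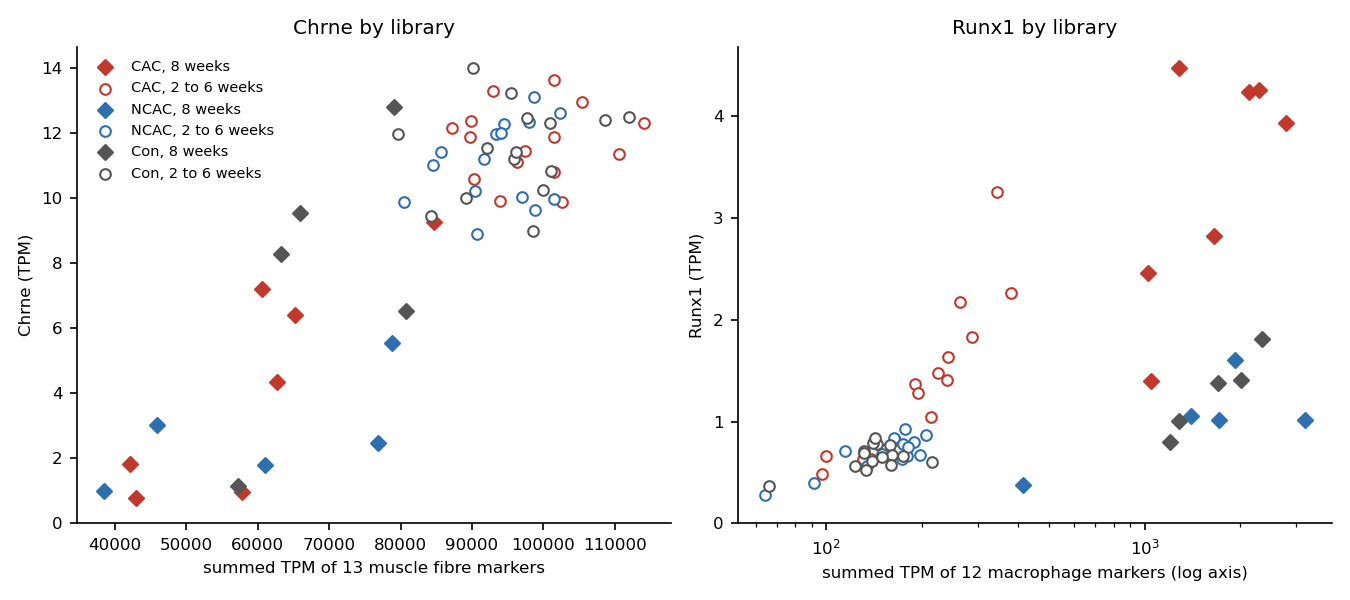
Left, Chrne (TPM) against the summed TPM of 13 muscle fibre markers in each library, and right, Runx1 (TPM) against the summed TPM of 12 macrophage markers on a log axis, with filled diamonds for 8 weeks and open circles for 2 to 6 weeks. The 8-week libraries mostly sit at lower fibre sums and, for Chrne, between 0.79 and 12.8 TPM. The macrophage sums of CAC, NCAC and Con overlap at 8 weeks. Runx1 is higher there in CAC, except in replicate 3, which lies within the range of the other groups. The part of macrophages in Runx1 was not tested.

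Chrng (chromosome 1, 87204657 to 87212694), the embryonic subunit, stayed low. At 8 weeks the CAC libraries had 0.117, 0.148, 1.60, 0.102, 0.403, 0.0306 and 0.468 TPM, the NCAC libraries 0.162, 0.177, 0.295, 0.234 and 0.360 TPM, and the Con libraries 0.650, 0.119, 0.459, 0.338 and 0.411 TPM. CAC replicate 3 alone passed 1 TPM in that week. Chrng made up a median of 6.10% of the summed TPM of Chrng and Chrne in CAC, 7.15% in NCAC and 4.73% in Con at 8 weeks. The medians were 2.96%, 3.07% and 5.07% in CAC, NCAC and Con at 6 weeks. In the same order they were 6.03%, 5.85% and 3.66% at 2 weeks and 6.07%, 6.49% and 4.67% at 4 weeks. This share also depends on Chrne, whose group means were lower at 8 weeks. No comparison called Chrng, and the largest difference between treatments at 8 weeks was -0.16 ± 0.20, in NCAC against Con (adjusted p = 0.726). Of the other subunits, the list of 10 neuronal acetylcholine receptor genes had no member past the filter.

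Chrna2 (chromosome 14, 66135039 to 66152948) showed the sharpest difference of the 10 and one in the opposite direction to Musk. At 6 weeks it had 0.906, 2.34, 1.13, 0.534 and 2.21 TPM in CAC, against 7.58, 4.75, 5.44, 4.77 and 3.42 TPM in NCAC and 6.36, 7.14, 7.42, 4.56 and 6.31 TPM in Con. All 5 CAC libraries lay below every library of both other groups. Chrna2 fell by 1.65 in log2 units against Con (adjusted p = 5.45e-05, SE 0.21) and by 1.38 against NCAC (SE 0.21, adjusted p = 0.000213). At 8 weeks it averaged 1.41 ± 1.33 TPM in CAC (SD, n = 7), 2.47 ± 1.68 TPM in NCAC and 2.36 ± 0.90 TPM in Con (SD, n = 5 each), and neither difference passed (adjusted p = 0.211 against NCAC and 0.242 against Con). Without CAC replicate 7, which held 4.30 TPM, the difference from NCAC was -0.76 with an adjusted p of 0.045. In Con, Chrna2 fell by 1.15 between 8 and 6 weeks (SE 0.28, adjusted p = 0.00161), with 8-week libraries from 1.52 to 3.80 TPM and 6-week libraries from 4.56 to 7.42 TPM. The CAC effect was smaller at 8 than at 6 weeks by 1.07 ± 0.38 on the log2 scale, a difference that did not pass (adjusted p = 0.203).

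Runx1 (chromosome 16, 92601466 to 92826149) was the denervation-linked gene with the clearest rise in CAC. At 6 weeks it had 2.18, 1.83, 1.48, 1.63 and 1.40 TPM in CAC, against 0.685, 0.670, 0.708, 0.868 and 0.276 TPM in NCAC and 0.842, 0.671, 0.652, 0.688 and 0.572 TPM in Con. The CAC libraries lay above both other groups without overlap. The log2 difference was 0.68 ± 0.10 against Con (adjusted p = 0.000281) and 0.72 ± 0.10 against NCAC (adjusted p = 0.000116). At 8 weeks the lowest, median and highest CAC libraries held 1.40, 3.93 and 4.47 TPM, against 1.60, 0.377, 1.02, 1.06 and 1.01 TPM in NCAC and 1.41, 1.81, 0.804, 1.01 and 1.38 TPM in Con. Only CAC replicate 3 fell within the range of the other groups. Runx1 was higher in CAC by 0.90 ± 0.20 against Con (adjusted p = 0.0114) and by 1.09 ± 0.20 against NCAC (adjusted p = 0.00231). At 4 weeks the CAC libraries ranged from 0.631 to 3.26 TPM, and the difference of 0.61 ± 0.20 from Con did not pass (adjusted p = 0.122). It passed against both groups without CAC replicate 5 (adjusted p = 0.0144 against NCAC and 0.0269 against Con), and against NCAC without CAC replicate 1 (adjusted p = 0.0481).

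Runx1 is also expressed by blood-derived cells, and 12 macrophage markers, led by Lyz2, were summed beside it. At 4 weeks that sum ranged from 130 to 380 TPM in CAC, from 91.6 to 181 TPM in NCAC and from 134 to 214 TPM in Con. CAC replicates 2 and 4 stood highest in that week, at 380 and 344 TPM. The sum ranged from 225 to 287 TPM in CAC at 6 weeks, above the 64.2 to 206 TPM of NCAC and the 131 to 161 TPM of Con. At 8 weeks it ranged from 1022 to 2789 TPM in CAC, from 416 to 3193 TPM in NCAC and from 1203 to 2341 TPM in Con, with overlap. In that week 6 of 7 CAC libraries exceeded every library of the other groups in Runx1. Summed satellite cell markers also lay higher in CAC, at 94.8 to 145 TPM against 56.3 to 82.5 TPM in NCAC and 69.2 to 77.2 TPM in Con at 6 weeks. Most of that gap was Sdc4, with 72.1 ± 23.3 TPM in CAC, 28.9 ± 7.3 TPM in NCAC and 35.0 ± 3.7 TPM in Con (SD, n = 5 each). Of 8 satellite markers tested against Con at 6 weeks, 2 were higher, the list median was 0.19 beside 0.16 over all tested genes, and Pax7, the defining marker, did not pass (0.16 ± 0.13, adjusted p = 0.372). Satellite sums at 8 weeks were 84.1 to 153 TPM in CAC, 53.2 to 71.2 in NCAC and 69.3 to 91.0 in Con. In that week 1 of the 8 markers was higher and 1 lower against Con. No marker of these lists was at 0 throughout a group, and their part in the Runx1 result was not tested. Natural killer and T cell markers summed to under 2 TPM in every library of week 6. At 8 weeks they summed to 0.76 to 14.3 TPM in CAC, 2.59 to 4.91 TPM in NCAC and 2.63 to 26.3 TPM in Con. The highest CAC sum was that of replicate 3, and the part of these cells in Runx1 was not tested. A predicted gene, Gm26626, overlaps Runx1 on the opposite strand, and whether quantification used the strand is not given in the sources used here.

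Ncam1 (chromosome 9, 49502136 to 49798925), which spreads over the surface of fibres without a nerve and is also made by satellite and Schwann cells, did not pass between treatments in any week. At 8 weeks it had a lowest, median and highest of 2.64, 5.82 and 8.93 TPM in CAC, against 7.17, 4.13, 7.72, 4.84 and 4.62 TPM in NCAC and 9.58, 9.88, 8.18, 7.98 and 5.84 TPM in Con. CAC and Con overlapped, and the difference from Con was -0.59 ± 0.22 (adjusted p = 0.0974). It passed without CAC replicate 3, at -0.70 (adjusted p = 0.0312). Within CAC, Ncam1 fell by 0.77 between 8 and 6 weeks (SE 0.21, adjusted p = 0.00458), with 5.42 ± 2.13 TPM at 8 weeks (SD, n = 7) and 9.64 ± 2.44 TPM at 6 weeks (SD, n = 5). At 6 weeks its difference of 0.38 ± 0.19 from NCAC passed only without NCAC replicate 3, a library high in Myh4 (adjusted p = 0.0362), and at 2 weeks only without CAC replicate 2 (adjusted p = 0.0244). Summed Schwann cell markers, led by Pmp22, ranged from 90.6 to 202 TPM in CAC at 8 weeks and from 95.0 to 139 TPM in CAC at 6 weeks, and their part in the Ncam1 result was not tested. The predicted gene Gm11149 overlaps Ncam1 on the opposite strand.

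Hdac4 (chromosome 1, 91928779 to 92195699), the deacetylase that acts on receptor and myogenin genes after denervation, stayed between group means of 11.0 and 17.8 TPM. At 8 weeks it averaged 16.2 ± 4.8 TPM in CAC (SD, n = 7), 11.0 ± 2.8 TPM in NCAC and 14.1 ± 3.2 TPM in Con (SD, n = 5 each). The difference from NCAC was 0.51 ± 0.22 (adjusted p = 0.107), and it passed without CAC replicate 6, the library with the highest Myh4 and the lowest Myh7 of its group (log2 0.65, adjusted p = 0.0152). The predicted gene Gm26720 overlaps Hdac4 on the opposite strand.

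NCAC against Con asked whether a tumour that does not waste the muscle touches the same genes. Limma called none of the 10 at any week, with 2, 1, 0 and 0 of them at an unadjusted p under 0.05 at 2, 4, 6 and 8 weeks. Over all tested genes, 0.00739% were called at 2 and at 4 weeks and 0% at 6 and 8 weeks. Each of the 10 had a difference below zero at 8 weeks, with a median of -0.39 beside -0.17 over all tested genes. Chrne at -1.08 ± 0.54 and Chrnd at -0.91 ± 0.45 lay furthest from zero (adjusted p = 0.516 for each). The effect of CAC on the 10 genes was then compared between 8 and 6 weeks in a fit of the CAC and Con libraries of both weeks. Limma called none of the 10, with 2 (Chrna2 and Ncam1) at an unadjusted p under 0.05 and 0.192% of all tested genes called. Between 8 and 6 weeks within CAC, 4 of 10 were called beside 48.2% of all tested genes (38.0% higher and 10.2% lower): Runx1 was higher, by 0.65 ± 0.17 (adjusted p = 0.00298), and Chrne, Ncam1 and Chrnd were lower. The Chrnd change of -0.90 ± 0.35 (adjusted p = 0.0379) was lost without any one of CAC 6-week replicates 1, 2, 4 and 5 or CAC 8-week replicates 2, 4 and 6 (adjusted p from 0.0621 to 0.0814). Chrnb1 did not pass there (adjusted p = 0.0579), but passed without any one of CAC 6-week replicates 2 and 5, CAC 8-week replicates 3 and 5 or Con 8-week replicates 1 and 2 (adjusted p from 0.0287 to 0.0458).

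Within Con, 2 of 10 were called between 8 and 6 weeks, Chrna1 and Chrna2, both lower, beside 52.7% of all tested genes (47.2% higher and 5.46% lower). Chrna1 held 26.1, 10.4, 24.0, 21.6 and 26.1 TPM at 8 weeks and 38.8, 30.5, 34.6, 26.1 and 30.2 TPM at 6 weeks in Con. It fell by 0.60 in log2 units (adjusted p = 0.0292, SE 0.23), and the call was lost without Con 8-week replicate 2 (adjusted p = 0.123) or Con 6-week replicate 1 or 3 (adjusted p = 0.0732 and 0.0584). Runx1 was 0.42 ± 0.18 higher at 8 weeks in Con, short of the threshold (adjusted p = 0.052), and passed without any one of CAC 8-week replicates 2, 3, 4 and 6 or Con 8-week replicates 3 and 4 (adjusted p from 0.0127 to 0.0496). The median of all tested genes was 0.18 in CAC and 0.29 in Con between these weeks, so that a TPM difference of zero was below the median gene.

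Around these 10, 36 other junction genes and 30 other denervation genes were listed, of which 34 and 27 passed the filter. At 6 weeks 10 of the 34 junction genes were higher and 0 lower in CAC than in Con, with a list median of 0.15 beside 0.16 over all tested genes, and 6 of the 27 denervation genes were higher and 2 lower, with a median of 0.20. Over all tested genes, 23.5% were higher and 3.87% lower. Against NCAC the counts were 13 higher and 0 lower, and 6 higher and 2 lower, with medians of 0.27 and 0.20 beside 0.16, where 27.8% of all tested genes were higher and 4.86% lower. At 8 weeks against Con, 2 junction genes were higher and 1 lower, and 2 denervation genes were higher and 3 lower, with medians of -0.10 and 0.11 beside 0.0043 over all tested genes, of which 6.31% were higher and 4.26% lower. Against NCAC at 8 weeks, 7 were higher and 0 lower, and 7 higher and 1 lower, with medians of 0.23 and 0.26 beside 0.16, and with 19.3% of all tested genes higher and 2.68% lower.

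Among the upstream partners of MuSK, agrin and Lrp4 showed no call at 6 weeks: Agrn averaged 11.0 ± 2.3 TPM in CAC, 9.93 ± 1.31 TPM in NCAC and 9.90 ± 0.66 TPM in Con (SD, n = 5 each), and Lrp4 averaged 6.43 ± 1.28, 5.46 ± 0.40 and 6.17 ± 0.84 TPM in CAC, NCAC and Con. Agrn was called at 8 weeks against NCAC, by 0.49 ± 0.17 (adjusted p = 0.0461). Dok7, the adaptor that activates MuSK from inside the fibre, was higher in CAC at 6 weeks, at 20.4 ± 4.3 TPM against 13.7 ± 1.3 TPM in NCAC and 14.3 ± 1.5 TPM in Con (SD, n = 5 each), by 0.46 ± 0.13 against Con (adjusted p = 0.0181). Rapsn, the scaffold that anchors receptors, averaged 28.0 ± 4.6 TPM in CAC and 30.8 ± 1.7 TPM in Con and did not pass (adjusted p = 0.322).

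Genes of the postsynaptic dystrophin complex were among the called genes of the junction list. Each week-6 difference from Con given for Dok7 and for genes of both lists stands beside a median of 0.16 over all tested genes. These genes were not examined after rescaling. Dtna, which encodes alpha-dystrobrevin, rose by 0.39 ± 0.09 against Con at 6 weeks (adjusted p = 0.00707), and Sntb2, a syntrophin scaffold, by 0.51 ± 0.13 (adjusted p = 0.0101). Of the synaptic laminins, Lama5 rose by 0.42 ± 0.10 at 6 weeks (adjusted p = 0.00848) and by 0.46 ± 0.14 at 8 weeks (adjusted p = 0.0492), and Lama4 by 0.41 ± 0.11 at 6 weeks (adjusted p = 0.0129), each against Con. Both laminins are also made in vessel walls, and 6 of 10 endothelial markers were higher and 1 lower against Con at 6 weeks, with a median of 0.36. Their summed level ranged from 260.3 to 327 TPM in CAC, from 203 to 272 TPM in NCAC and from 213 to 239.6 TPM in Con. At 8 weeks 2 were higher and 1 lower against Con, with sums from 212 to 367 TPM in CAC, from 209.7 to 265 TPM in NCAC and from 238 to 279 TPM in Con. No endothelial marker was at 0 throughout a group, and the part of these cells in the laminin result was not tested. Etv4, a transcription factor of the ETS family, fell in CAC at 8 weeks to 1.59 ± 0.86 TPM (SD, n = 7), against 3.46 ± 0.33 TPM in Con (SD, n = 5), by 0.85 in log2 units (adjusted p = 0.0254, SE 0.23). At 2 weeks the single call of the list was Colq, the collagen tail of acetylcholinesterase, named because it was the only one: it was higher by 1.23 ± 0.24 in CAC against NCAC (adjusted p = 0.0489), and a gene model overlaps it on the same strand.

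Of the denervation list, Cdkn1a, a cell cycle inhibitor that muscle raises after nerve injury, averaged 47.7 ± 20.1 TPM in CAC, 17.1 ± 6.8 TPM in NCAC and 16.7 ± 6.4 TPM in Con at 6 weeks (SD, n = 5 each), and rose by 1.42 ± 0.28 against Con (adjusted p = 0.00254). Sln, a regulator of the calcium pump, rose by 0.94 ± 0.26 (adjusted p = 0.0168), Igfn1, a sarcomere-associated protein, by 0.73 ± 0.15 (adjusted p = 0.00352), and Trim63, an ubiquitin ligase of atrophy, by 0.65 ± 0.21 (adjusted p = 0.0298). Nes, an intermediate filament gene of the junctional region and of satellite cells, moved the other way, with a fall of 0.75 at 6 weeks (SE 0.20, adjusted p = 0.015). At 8 weeks Nes stood at 3.63 ± 1.50 TPM in CAC (SD, n = 7), against 9.60 ± 2.39 TPM in NCAC and 16.0 ± 1.8 TPM in Con (SD, n = 5 each), and fell by 1.93 against Con (SE 0.20, adjusted p = 0.000204). Eda2r, a receptor of the TNF receptor family, was higher at 8 weeks by 0.88 ± 0.14 (adjusted p = 0.00236). Myog, the myogenic factor that rises in denervated fibres, did not pass at either week, with 18.1 ± 4.3 TPM in CAC and 22.2 ± 3.3 TPM in Con at 6 weeks (adjusted p = 0.419) and 15.6 ± 10.7 TPM in CAC and 17.3 ± 2.2 TPM in Con at 8 weeks (adjusted p = 0.559).

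**Figure D4:**
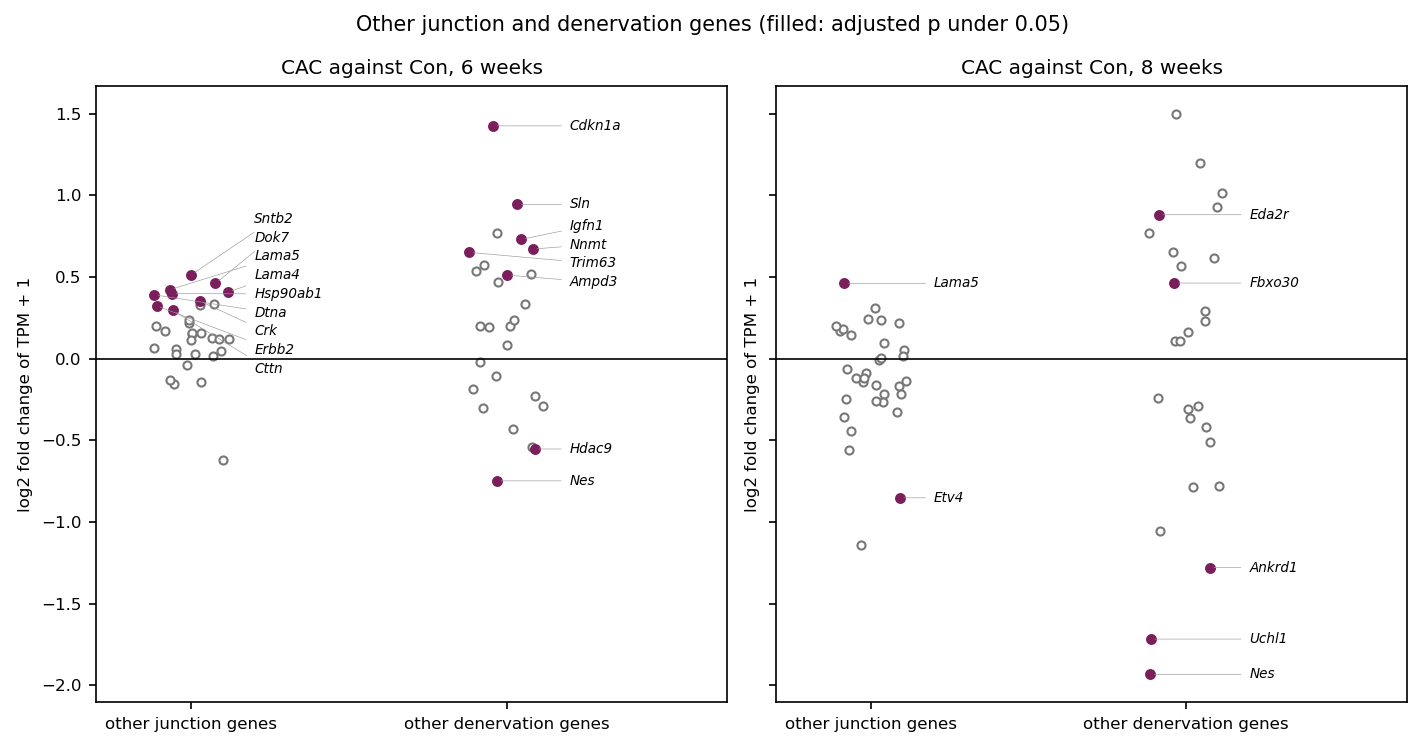
Log2 fold change of TPM + 1 in CAC against Con at 6 weeks (left) and 8 weeks (right) for tested genes of the other junction and other denervation lists, with filled and named points for adjusted p under 0.05. At 6 weeks the called junction genes lie above zero, with Sntb2 at 0.51, and at 8 weeks the called genes spread from Nes at -1.93 to Eda2r at 0.88.

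Genes whose levels ran closest to a member across the 62 libraries were found by Pearson correlation of log2 values after the mean of each week was taken off, among 11584 genes with a mean of at least 1 TPM. These are descriptions over libraries that share treatments and mixtures of cells. Chrne ran closest to Ache, which encodes the acetylcholinesterase of the junction (r = 0.90), then to Ufsp1, its neighbour on chromosome 5 (r = 0.82), and then to Chrnd (r = 0.71). Chrne spread from 0.79 to 12.8 TPM at 8 weeks and from 8.91 to 14.0 TPM before, so most of its spread here came from week 8. Chrnd ran closest to the same pair, Ache (r = 0.76) and Ufsp1 (r = 0.75), and Chrng to Chrnd (r = 0.71). Ache was lower in CAC at 8 weeks, at 3.95 ± 2.97 TPM (SD, n = 7), than at 6 weeks, at 10.4 ± 2.0 TPM (SD, n = 5), by 1.43 ± 0.36 on the log2 scale (adjusted p = 0.00241). Runx1 ran closest to Ifi205 (r = 0.93), Ggt5 (r = 0.93) and Il1r1 (r = 0.93), the last of them the interleukin 1 receptor. Musk ran closest to Cep85l (r = 0.88), Ip6k3 and Usp25 (both r = 0.82), Chrnb1 to Bves (r = 0.84), Chrna1 to Tead3 (r = 0.77), Chrna2 to Abhd1 (r = 0.79), Ncam1 to Cwc27 (r = 0.77) and Hdac4 to Ankrd11 (r = 0.77).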

How the data were processed

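The authors deposited expression values of soleus muscle in TPM. Per the submitters' processing notes, the build is mm10. Total RNA was made into TruSeq stranded mRNA libraries, per the labels' protocols. Which aligner and quantifier were used, and whether by strand, is not given in the sources used here. Since TPM keeps no read depth, no counting interval was computed.

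Groups were taken from the labels. Values were transformed to log2(TPM + 1), and the 13529 of 47643 genes with at least 1 TPM in at least 5 libraries were fitted with limma 3.58.1 (R 4.3.3, intensity trend). Treatments were compared within a fit of each week, and 8 against 6 weeks in a fit of CAC and Con at both weeks. P-values were adjusted by Benjamini-Hochberg over all tested genes, and the procedure was tested on simulated data. The 10 genes, the lists and the tests were chosen with earlier results of these data known: a spread shared by all weeks was known to give too many calls at 8 weeks.

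All 10 genes are named, with up to 6 genes of each list with the smallest adjusted p in CAC against Con at 6 and at 8 weeks (a selection of these is printed, and 1 gene of the junction list is counted but not reported here), Myog, Agrn, Lrp4, Dok7 and Rapsn, and the 3 genes most like each member. Alternatives were a pseudocount of 0.1, no filter, median-of-ratios rescaling, fits of all 62 libraries in 12 groups with and without group weights, a replicate block, the compared groups alone, and leaving out each library. Leaving out the 3 libraries at 500 TPM or more of Myh4, a fast myosin, was chosen after seeing the data. Gene positions are from GENCODE M21 and promoters from RefSeq. Figures were drawn with matplotlib 3.10.9 (Python 3.11.15).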

Additional observations from a re-analysis of the deposited data

Results flagged for a closer look

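In 7 of the 120 combinations of gene and group, 1 library lay far from the others of its group, and chance alone marks about 1 in 20. Chrna1 was low in Con replicate 2 at 8 weeks, at 10.4 TPM against 21.6 to 26.1 TPM in the other Con libraries. Chrne was low in Con replicate 3 at 2 weeks, at 11.2 TPM, and high in CAC replicate 1 at 6 weeks, at 13.6 TPM, both small departures within narrow groups. Chrng was high in CAC replicate 3 at 8 weeks, at 1.60 TPM, where the other CAC libraries held 0.0306 to 0.468 TPM. Chrna2 was high in CAC replicate 7 at 8 weeks, at 4.30 TPM, in NCAC replicate 2 at 8 weeks, at 5.35 TPM, and in Con replicate 5 at 2 weeks, at 4.28 TPM. NCAC replicate 2 is also the 8-week library that lay within the range of the earlier weeks.

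For some genes every library of the group named first lay on one side of the mean of the other group at one week, and on the opposite side at another. Apart from CAC and NCAC in Musk at 8 weeks the libraries of the 2 groups overlapped, and these differences between weeks were not tested. For Musk, CAC minus NCAC was 1.43 higher on the log2 scale at 6 than at 2 weeks and 1.92 higher at 8 than at 2 weeks, and NCAC minus Con differed by -1.15 between 8 and 2 weeks. For Chrnb1, NCAC minus Con differed by 0.34 between 4 and 2 weeks. For Hdac4, NCAC minus Con differed by -0.68 between 8 and 2 weeks.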

How the results depend on the processing

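The alternatives left 338 of the counts of called genes within 1.5 times the reported value and moved 28, and no direction was reversed. Comparisons with 0 called in the reported fit are included, and a count that stayed at 0 was scored as kept. A change from 4 to 3 was also scored as kept, so the 338 is no measure of how firm the calls are. Where a count moved, the cause was not tested. For single genes called in the reported fit, 449 values kept the call and 57 lost it. For genes not called there, 56 values gained a call, and those that stayed uncalled were not counted. Against Con at 8 weeks (1 called), 6 were called with all 62 libraries in 12 groups, 0 with the replicate block and 2 without the libraries high in Myh4. Group weights gave 1 call against Con at 4 weeks and 1 each against NCAC at 2 and 4 weeks. Against NCAC at 6 weeks (5 called), no filter, rescaling and the compared groups alone each gave 3, and rescaling gave 2 against NCAC at 8 weeks (4 called). In Con between 8 and 6 weeks (2 called), no filter gave 1, rescaling 6, the 12-group fit 4 and group weights 5. Leaving out each library in turn gave, in CAC against Con, 0 to 1 calls at 4 weeks, 3 to 4 at 6 weeks and 1 to 3 at 8 weeks. In CAC against NCAC it gave 0 to 1 at 2 and at 4 weeks, 3 to 7 at 6 weeks and 3 to 5 at 8 weeks. It gave 3 to 5 in CAC and 1 to 3 in Con between 8 and 6 weeks.

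Of 60 pairs of libraries with the same replicate number, 15 had deviations correlated above 0.1 (range -0.67 to 0.48). Pairs with different numbers were not compared, so these values cannot show whether the numbers pair the animals. With the replicate block, CAC against Con gave 4 calls at 6 weeks and 0 at 8 weeks, where Runx1 had an adjusted p of 0.0604. CAC against NCAC gave 4 and 5, and 8 against 6 weeks gave 3 in CAC and 3 in Con. Without read depth, the precision of low genes such as Chrng is unknown.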
